A study of Solanum tuberosum with 12 samples.

Results

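The miR396 family of small regulatory RNAs was examined in potato (Solanum tuberosum) tubers. Its members are the 5 entries of the deposited miRNA count table whose name holds miR396 not followed by a digit, out of 7827 entries in the table. The 5 entries hold 5 distinct sequences, and no other entry of the table holds one of these sequences. The names stu-miR396-5p and stu-miR396-3p belong to the potato miRNA, for the arms of its hairpin precursor. The other 3, miR396-x, miR396-y and miR396-z, are names taken from other species, and the table does not say what the endings stand for. Small RNA was sequenced from 12 libraries, 3 from each of 4 cultivars: Black kingkong and Red beauty, whose names hold a colour, and Longshu No.7 and LK99, whose names do not. They grew at 1 station in 1 season, watered and lit alike, and were 150 days old when sampled. No cultivar is a control and none was treated. Flesh colour is not in the labels, nor is whether each library stands for a plant of its own, so p-values here measure spread among libraries that may be technical. In bulk tubers, fewer cells of a type and less RNA per cell cannot be told apart.

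The miR396 family is conserved in land plants. Its mature 5p strand pairs with messenger RNAs of growth-regulating factors (GRFs), transcription factors that keep cells dividing in young organs together with GIF coactivators, and leads to their cleavage. In Arabidopsis leaves the TCP4 transcription factor raises miR396, and TCP4 is itself a target of miR319. Of each miRNA duplex, 1 strand is kept in an Argonaute protein and the other is usually degraded, and the Argonaute protein AGO1 of Arabidopsis prefers strands that begin with U.

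The 5 sequences are given 5′ to 3′ as the table writes them, with T for U and the seed, bases 2 to 8, in capitals, since the seed separates every member from every other.
stu-miR396-5p: tTCCACAGctttcttgaactt
miR396-x: tTCAACAGctttcttgaactg
stu-miR396-3p: gTCCAAGAaagctgtgggaaa
miR396-y: tTCAAGAAagttgtgggaaa
miR396-z: tTCATGATcttcttatgcct

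Counted from 1 at the 5′ end, miR396-x differed from stu-miR396-5p by C4A, inside the seed, and T21G, the last base, and matched it at the other 19 of 21 positions. The 20-nt miR396-y began 1 base later than the 21-nt stu-miR396-3p and matched it at 18 of 20 aligned positions, with C3T and C12T in the numbering of stu-miR396-3p. By sequence, miR396-x is thus 5p-like and miR396-y 3p-like. The entry miR396-z was close to no other member: its best match, to miR396-x, covered 11 of 20 aligned positions, so it is called by its name only. Predicted to pair with RNAduplex, stu-miR396-5p formed 18 base pairs with stu-miR396-3p (-27.8 kcal/mol) and 18 with miR396-y (-26.5 kcal/mol). The pairing of miR396-x was weaker, with 17 base pairs and -21.2 kcal/mol for stu-miR396-3p and 17 base pairs and -19.9 kcal/mol for miR396-y. Only stu-miR396-3p begins with G. The other 4 begin with T, as do 43.9% of the 5730 distinct sequences in the table. The seeds of stu-miR396-5p and miR396-x occurred in 0 other entries, and 0 entries with other names contained a member, were contained in one, or differed from one of the same length by up to 2 bases. A RefSeq gene table of the assembly SolTub_3.0 lists 1 potato gene of this family, MIR396. The genome build behind the counts is not given in the sources used here, so no coordinates are stated.

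The libraries held 5.61 to 7.35 (in 1e6 counts), of which the miR166 family took 86.4% to 92.5%. Levels are counts per 1e6 counts (CPM) after scaling by TMM factors, which are meant to correct for differences in composition. The mean factor was 0.986 for Black kingkong and 0.872 for Red beauty, and 0.953 for Longshu No.7 and 1.24 for LK99. The mean miR166 share was 87.9%, 92.2%, 90.7% and 87.4% in the same order, so the factors did not follow that share alone. Across tested entries, which are not independent replicates, Pearson's r of log2 CPM ran from 0.861 to 0.974 within cultivars and from 0.677 to 0.833 across them. Longshu No.7 replicate 3 stood apart from both others of its cultivar (0.861 and 0.865), and LK99 replicate 3 was next (0.903 and 0.924). Of the 5 members, 4 passed the filter on low counts and were tested.

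Nearly all miR396 counts came from 1 strand. Of the family's counts over the 12 libraries, stu-miR396-5p held 93.4%, miR396-x 6.43%, miR396-y 0.118%, stu-miR396-3p 0.0527% and miR396-z 0.00415%. Ranked by counts among distinct sequences, stu-miR396-5p was 2nd in 5 of 12 libraries and stood between rank 2 and rank 7 in all of them. It ranked 2 in the 3 Red beauty libraries and 5, 7 and 6 in the Black kingkong libraries. The 5p-like miR396-x ranked between 20 and 30. Summed over all 5 entries, the family made up 0.608% ± 0.0663 of the counts for Black kingkong and 1.30% ± 0.235 for Red beauty, and 1.26% ± 0.346 for Longshu No.7 and 1.12% ± 0.0504 for LK99 (SD, n = 3 each).

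The main strand, stu-miR396-5p, was lowest in Black kingkong. Its levels in the 3 libraries were 5372, 5005 and 6180 CPM in Black kingkong. In Red beauty they were 11018, 14510 and 17781.5 CPM. In Longshu No.7 they were 10329, 9338 and 19948.5 CPM, and in LK99 7097, 8848 and 9056 CPM. On this scale every Black kingkong library lay below every library of the other cultivars, and every LK99 library lay below every library of Red beauty and Longshu No.7, which overlapped each other. As a percentage of all counts, without TMM scaling, stu-miR396-5p took 0.601%, 0.483% and 0.537% for Black kingkong and 0.983%, 1.36% and 1.39% for Red beauty. The shares were 1.11%, 0.923% and 1.58% for Longshu No.7 and 0.974%, 1.04% and 1.06% for LK99. Unscaled, the Black kingkong libraries again lay below all others, but LK99 overlapped with both Red beauty and Longshu No.7. The high value of Longshu No.7 came from replicate 3, the library that stood apart. The mean level was 5519 ± 601 CPM for Black kingkong and 14436 ± 3382.5 for Red beauty, and 13205 ± 5861 for Longshu No.7 and 8334 ± 1076 for LK99 (SD, n = 3 each). In order from low to high, Black kingkong and LK99 did not differ beyond the threshold, nor did LK99 and Longshu No.7, nor Longshu No.7 and Red beauty.

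**Figure D1:**
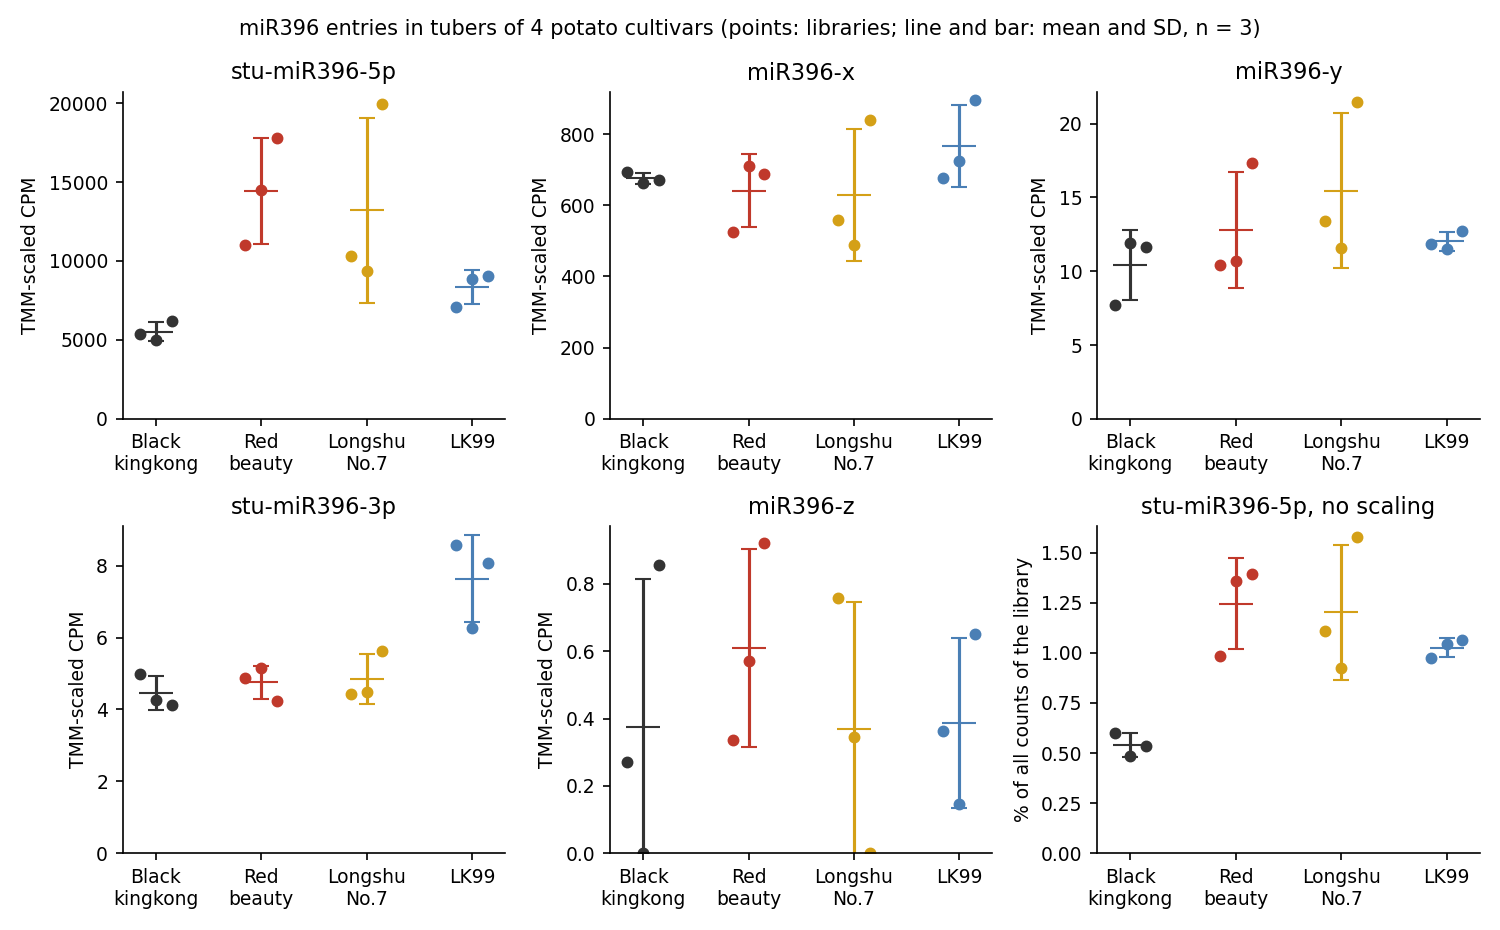
Levels of the 5 miR396 entries by cultivar, as TMM-scaled CPM on linear axes that start at 0, and stu-miR396-5p as a percentage of all counts without scaling. Points are libraries, and the line and bar give mean and SD (n = 3; for miR396-z bars that would pass below 0 are cut there). For stu-miR396-5p the Black kingkong libraries, at 5005 to 6180 CPM, sit below those of every other cultivar. For stu-miR396-3p the LK99 libraries, at 6.26 to 8.58 CPM, sit above the rest.

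Across the 4 cultivars, 1 of the 4 tested members differed, stu-miR396-5p (edgeR quasi-likelihood F-test, Benjamini-Hochberg adjusted p = 0.0033). In the same test 58.9% of the 1349 tested entries differed, and 4 members are too few to read their share against that background. The F-test gave an adjusted p of 0.081 for stu-miR396-3p, 0.68 for miR396-x and 0.46 for miR396-y.

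In Black kingkong against Red beauty 1 member passed the test. The GRF-targeting strand stu-miR396-5p was 2.62-fold lower in Black kingkong (log2 fold change -1.39, SE 0.28, edgeR adjusted p = 0.0015), with no overlap between the libraries. It was the only 1 of 4 members called, where 42.1% of all entries were called, 20.3% as higher and 21.8% as lower, and 56.6% had libraries that did not overlap. The intervals of the other members spanned 0. For miR396-x the log2 fold change was 0.08 (95% interval -0.44 to 0.59), for miR396-y -0.30 (-1.01 to 0.41) and for stu-miR396-3p -0.09 (-0.73 to 0.55).

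Black kingkong against Longshu No.7 gave a similar picture. Black kingkong had 2.39-fold less stu-miR396-5p (log2 fold change -1.26, SE 0.28, edgeR adjusted p = 0.0044), again without overlap. Here 1 of 4 members was called, against 34.3% of all entries (14.7% as higher and 19.6% as lower in Black kingkong), and 47.4% of all entries had no overlap. Without Longshu No.7 replicate 3 the log2 fold change was -0.85 (adjusted p = 0.0095), with the same call. The log2 fold change was 0.10 for miR396-x (95% interval -0.41 to 0.62), -0.57 for miR396-y (-1.28 to 0.14) and -0.11 for stu-miR396-3p (-0.75 to 0.52), and none of these passed the test.

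Black kingkong against LK99 called 0 of 4 members with edgeR, against 31.2% of all entries (12.5% as higher and 18.8% as lower). With DESeq2 0 of 4 were called, and in edgeR 1 of 4, stu-miR396-3p, had an unadjusted p under 0.05. The log2 fold change of stu-miR396-5p was -0.59 (95% interval -1.19 to 0.00243; SE 0.28, edgeR adjusted p = 0.12) although the libraries did not overlap. Such separation was seen for 49.5% of all entries in this pair. Other settings, such as leaving out Longshu No.7 replicate 3, put it past the threshold (-0.62, adjusted p = 0.027). For stu-miR396-3p, the sparse opposite strand, the value was -0.77 (-1.39 to -0.15, SE 0.29, adjusted p = 0.057), also without overlap.

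Red beauty against LK99 had 1 of 4 members called, where 33.5% of all entries were called, 14.3% as higher and 19.2% as lower. In this pair stu-miR396-5p was 1.73-fold higher in Red beauty (log2 fold change 0.79, SE 0.28, edgeR adjusted p = 0.041), without overlap between libraries after TMM scaling, a separation shared by 48.3% of all entries. Unscaled, the libraries overlapped. The call was lost in 14 of 22 other settings, with a log2 fold change of 0.28 (adjusted p = 0.27) by library size alone and 0.53 (adjusted p = 0.21) without Red beauty replicate 3. It was also lost without Red beauty replicate 2 or any 1 of the Black kingkong or LK99 libraries (0.62 to 0.78). Red beauty had a value of -0.68 for stu-miR396-3p (95% interval -1.31 to -0.06, adjusted p = 0.086), -0.26 for miR396-x (-0.77 to 0.26) and 0.09 for miR396-y (-0.62 to 0.80).

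Longshu No.7 against LK99 called 0 of 4 members with edgeR, against 18.3% of all entries (8.23% as higher and 10.1% as lower), and DESeq2 called 0 as well. After TMM scaling the libraries of stu-miR396-5p and stu-miR396-3p did not overlap, as for 32.1% of all entries, while unscaled those of stu-miR396-5p did. The unadjusted p was 0.032 for stu-miR396-5p and 0.039 for stu-miR396-3p, and above 0.05 for the other members. For stu-miR396-5p the log2 fold change was 0.66 (95% interval 0.07 to 1.26, edgeR adjusted p = 0.12), and it was 0.22 without Longshu No.7 replicate 3 (adjusted p = 0.51). Red beauty against Longshu No.7 also called 0 of 4 members, with edgeR and with DESeq2, against 24.0% of all entries (10.3% as higher and 13.7% as lower), and 0 of 4 had an unadjusted p under 0.05. No member had libraries without overlap, against 34.7% of all entries. For stu-miR396-5p the value was 0.13 (-0.47 to 0.72), so a difference of up to 0.72 on the log2 scale is within the interval.

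The series is about anthocyanins, and 2 cultivars have a colour in their name. Their average against that of the other 2 cultivars called 0 of 4 members, with edgeR and with DESeq2, against 28.6% of all entries (10.6% as higher and 18.0% as lower), and 0 of 4 had an unadjusted p under 0.05. For stu-miR396-5p, Black kingkong was lower than Red beauty, the other colour-named cultivar, and the log2 difference of the averages was -0.23 (95% interval -0.65 to 0.19, edgeR adjusted p = 0.40).

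**Figure D2:**
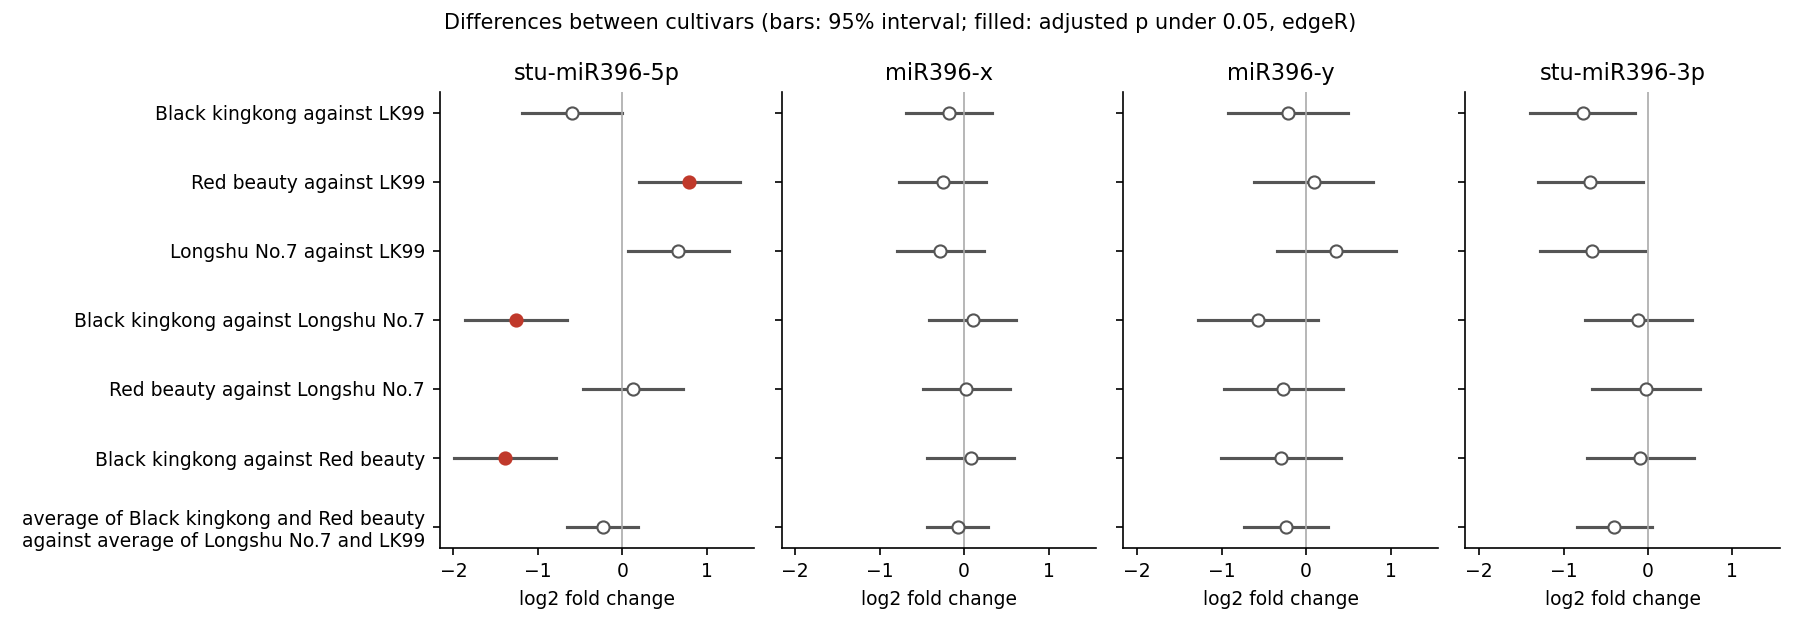
Log2 fold changes of the 4 tested miR396 entries in the 6 pairs of cultivars and in the average of the colour-named cultivars against the other 2, the first-named cultivar on top. Bars are 95% intervals, and filled points passed an adjusted p of 0.05 (edgeR). Filled points occur for stu-miR396-5p alone, at -1.39, -1.26 and 0.79.

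After TMM scaling, the 5p-like variant miR396-x stayed within a narrow band. Black kingkong had 692, 662 and 672 CPM, Red beauty 524, 711 and 688, Longshu No.7 558, 490 and 840, and LK99 677, 723 and 895. All 4 cultivars overlapped on this scale. From the highest to the lowest TMM-scaled cultivar mean the ratio was 1.22, against 2.62 for stu-miR396-5p. Unscaled, the LK99 libraries, at 852 to 1050 CPM, lay above every library of the other cultivars, at 467 to 774 CPM. With library size alone, the F-test across the 4 cultivars called miR396-x (edgeR adjusted p = 0.017). By library size alone miR396-x was lower in Red beauty (log2 fold change -0.76, edgeR adjusted p = 0.010) and in Longshu No.7 (-0.70, adjusted p = 0.028) than in LK99, a scaling under which the median of all entries also moved to -0.51 and -0.34 in these pairs.

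Because both 5p strands were counted in the same library, their ratio does not depend on the scaling. There were 7.76, 7.56 and 9.20 counts of stu-miR396-5p per count of miR396-x in Black kingkong, and 21.04, 20.4 and 25.9 in Red beauty. In Longshu No.7 there were 18.5, 19.1 and 23.8, and in LK99 10.5, 12.2 and 10.1. The order of the cultivars was that of the stu-miR396-5p levels, which are the numerator of the ratio. Here Longshu No.7 replicate 3 lay within the range of Red beauty. The denominator also varied: unscaled and summed over a cultivar, miR396-x had 948 CPM in LK99, 551 in Red beauty and 584 in Longshu No.7. In the same order stu-miR396-5p had 10269.5, 12398 and 11959 CPM, and its unscaled LK99 libraries overlapped with both others. The groups of Black kingkong, LK99 and the remaining pair did not overlap, while Red beauty and Longshu No.7 did. The ratio is a description and carries no test. As a share of family counts, stu-miR396-5p made up 88.8% ± 1.02 for Black kingkong and 95.6% ± 0.510 for Red beauty, and 95.1% ± 0.611 for Longshu No.7 and 91.4% ± 0.787 for LK99 (SD, n = 3 each). The sequences differ at 2 positions, and how reads that fit both were assigned is not given in the sources used here, so the split between these entries is uncertain.

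**Figure D3:**
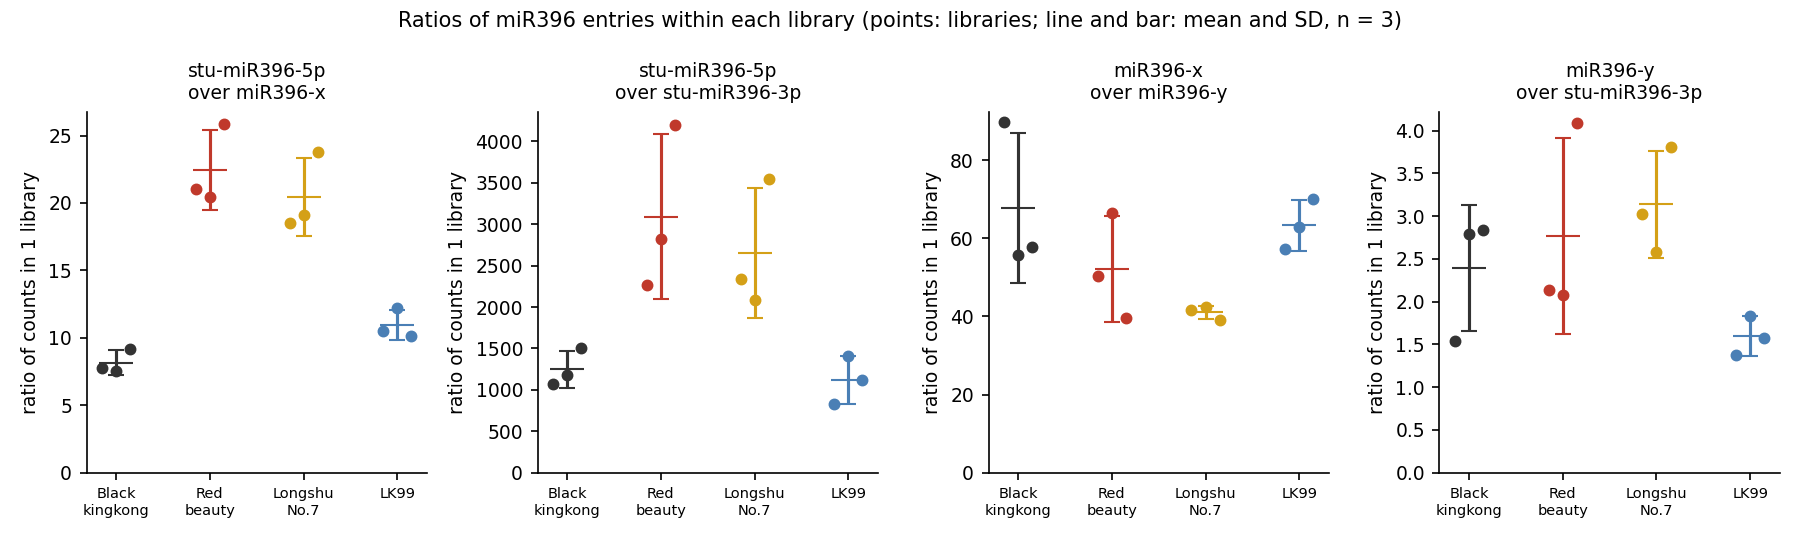
Ratios of counts between miR396 entries within each library, by cultivar, on linear axes that start at 0. Points are libraries, and the line and bar give mean and SD (n = 3). The ratio of stu-miR396-5p to miR396-x lies at 7.56 to 9.20 for Black kingkong and 20.4 to 25.9 for Red beauty, and 18.5 to 23.8 for Longshu No.7 and 10.1 to 12.2 for LK99.

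The 3p strands were rare. For stu-miR396-3p Black kingkong had 37, 29 and 24 counts in its libraries and Red beauty 29, 27 and 23. Longshu No.7 had 35, 26 and 26 counts, and LK99 71, 43 and 62. On the CPM scale this was 4.46 ± 0.476 for Black kingkong and 4.75 ± 0.465 for Red beauty, and 4.85 ± 0.683 for Longshu No.7 and 7.64 ± 1.22 for LK99 (SD, n = 3 each). Each LK99 library was above each library of the other cultivars, but none of these differences passed the test (adjusted p of 0.057, 0.086 and 0.13). Summed over a cultivar and without scaling, the 95% Poisson interval was 3.55 to 5.42 CPM for Black kingkong and 3.26 to 5.13 for Red beauty, and 3.66 to 5.63 for Longshu No.7 and 8.20 to 11.1 for LK99, which covers counting error only. By library size alone stu-miR396-3p passed the test as lower than in LK99 in Black kingkong (log2 fold change -1.11, edgeR adjusted p = 0.021), Red beauty (-1.20, adjusted p = 0.012) and Longshu No.7 (-1.06, adjusted p = 0.035), a scaling that moved the median of all entries in the same direction. With TMM scaling it passed in Black kingkong against LK99 without Longshu No.7 replicate 3 (-0.80, adjusted p = 0.032) and without replicate 3 of both Longshu No.7 and LK99 (-0.86, adjusted p = 0.035). In Red beauty against LK99 it passed in a fit of that pair alone (-0.82, adjusted p = 0.042), and among the 4 cultivars without Longshu No.7 replicate 3 (F-test, adjusted p = 0.039).

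The arms stood in different proportions. Per count of stu-miR396-3p there were 1075, 1175 and 1503 counts of stu-miR396-5p in Black kingkong, 2265, 2816 and 4191 in Red beauty, 2334, 2083 and 3540 in Longshu No.7, and 827, 1413 and 1122 in LK99. Red beauty and Longshu No.7 lay above Black kingkong and LK99 in every library, and within each of these pairs the libraries overlapped. The rare arm rests on 23 to 71 counts in a library.

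The 3p-like miR396-y was counted 57, 81 and 68 times in Black kingkong, 62, 56 and 94 times in Red beauty, 106, 67 and 99 times in Longshu No.7, and 98, 79 and 98 times in LK99. Its levels were 10.4 ± 2.35 CPM for Black kingkong and 12.8 ± 3.93 for Red beauty, and 15.5 ± 5.27 for Longshu No.7 and 12.0 ± 0.650 for LK99 (SD, n = 3 each), and the ranges overlapped in every pair. It was more abundant than stu-miR396-3p in all 12 libraries, by 1.38 to 4.09 times. Its highest value, 21.5 CPM, was in Longshu No.7 replicate 3, as for stu-miR396-5p.

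The entry miR396-z did not pass the filter and was not tested. It had 34 counts in all, with 2, 0 and 5 in the Black kingkong libraries, 2, 3 and 5 in Red beauty, 6, 2 and 0 in Longshu No.7, and 3, 1 and 5 in LK99. No library exceeded 0.922 CPM. With 3 counts as the limit, the 0 counts of Black kingkong replicate 2 leave room for up to 0.441 CPM, and those of Longshu No.7 replicate 3 for up to 0.650 CPM.

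Other miRNA families of organ growth were set beside miR396: miR319, which targets TCP factors, miR164, which targets NAC factors, miR165 and miR166, which target HD-ZIP III factors, miR171, which targets GRAS factors, and miR172, which targets AP2 factors. Of their 41 entries 26 were tested, with 22 distinct sequences. No miR171 entry was tested, and miR164 and miR165 were tested through miR164-x and miR165-y alone (means of 1.56 and 1.66 CPM). In Black kingkong against Red beauty 15 of 26 entries (13 distinct sequences) were higher and 0 lower, against 20.3% higher and 21.8% lower among all entries. The median log2 fold change was 1.00 for the list and 0 for all entries. The higher entries included every tested miR172 entry and, of miR166, stu-miR166d-5p alone. In Black kingkong against Longshu No.7, 9 entries (7 distinct sequences) were higher and 3 lower (14.7% and 19.6% of all entries). The median was 0.26 for the list and -0.14 for all entries. In Black kingkong against LK99, 12 entries (8 distinct sequences) were higher and 0 lower (12.5% and 18.8% of all entries), with medians of 0.68 and -0.06. In Red beauty against LK99, 8 entries (6 distinct sequences) were higher and 7 lower (14.3% and 19.2% of all entries), with medians of -0.19 and 0.00. In Red beauty against Longshu No.7, 1 was higher and 8 lower (10.3% and 13.7% of all entries), with medians of -0.73 and -0.06. In Longshu No.7 against LK99, 5 were higher and 0 lower (8.23% and 10.1% of all entries), with medians of 0.24 and 0.02. For the averages of the colour-named cultivars and the others, 7 entries (5 distinct sequences) were higher and 3 lower (10.6% and 18.0% of all entries). The medians were 0.13 and -0.10. These pairs share libraries, and the list was chosen with earlier results of these data known, so the counts are descriptions.

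The TCP regulator stu-miR319a-3p and stu-miR396-5p did not share 1 order of cultivars. Black kingkong had the most stu-miR319a-3p, at 5566 ± 601 CPM, followed by Longshu No.7 at 4921 ± 887, Red beauty at 2790 ± 605 and LK99 at 1393 ± 493 (SD, n = 3 each). Its log2 fold change was 1.00 (SE 0.27, edgeR adjusted p = 0.0086) for Black kingkong against Red beauty, where stu-miR396-5p had -1.39. For Longshu No.7 against LK99 it was 1.82 (SE 0.27, adjusted p = 0.00046), where stu-miR396-5p had 0.66. Black kingkong and Longshu No.7 did not differ beyond the threshold in stu-miR319a-3p (0.18, SE 0.26, adjusted p = 0.61). The other miR319 entries did not all follow it. In this pair stu-miR319-3p had 1.98 (edgeR adjusted p = 0.00037) and stu-miR319a-5p -1.53 (adjusted p = 0.0011). The entries miR319-y (0.21), stu-miR319b (-0.0005) and miR319-x (-0.04) were not called there.

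Among 95 named sequences of other families with a mean of at least 10 CPM, those most like stu-miR396-5p in log2 CPM over the 12 libraries were stu-miR8032a-5p (Pearson's r = 0.92), stu-miR7122-3p (0.87) and miR166-x (0.73). Without Longshu No.7 replicate 3 these values were 0.89, 0.83 and 0.63. At the level of cultivars, stu-miR8032a-5p had 9.22 ± 3.72 CPM for Black kingkong and 28.2 ± 2.39 for Red beauty, and 32.4 ± 27.8 for Longshu No.7 and 19.4 ± 5.45 for LK99, and stu-miR7122-3p had 5.74 ± 0.672, 19.1 ± 2.48, 22.2 ± 10.7 and 15.9 ± 7.16 in the same order (SD, n = 3 each). The means of these 2 were lowest in Black kingkong. That of miR166-x was not: it stood at 1124 ± 245 CPM for Black kingkong and 1591 ± 315 for Red beauty, and 3178 ± 2178 for Longshu No.7 and 1088 ± 120 for LK99. The entries nearest to miR396-x were miR1919-x (0.77), stu-miR391-5p (0.69) and miR1919-y (0.67), and those nearest to miR396-y were stu-miR8032a-5p (0.77), stu-miR384-5p (0.72) and miR166-x (0.69). Without Longshu No.7 replicate 3 those for miR396-x were 0.77, 0.71 and 0.67, and those for miR396-y were 0.59, 0.42 and 0.29. Within the family, stu-miR396-5p followed miR396-y (r = 0.70) more than miR396-x (0.15) or stu-miR396-3p (-0.02). Both stu-miR396-5p and miR396-y were highest in Longshu No.7 replicate 3, and their r was not computed without it. All entries of a library share its scaling and composition, and these correlations are descriptions over 12 libraries without a test.

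**Figure D4:**
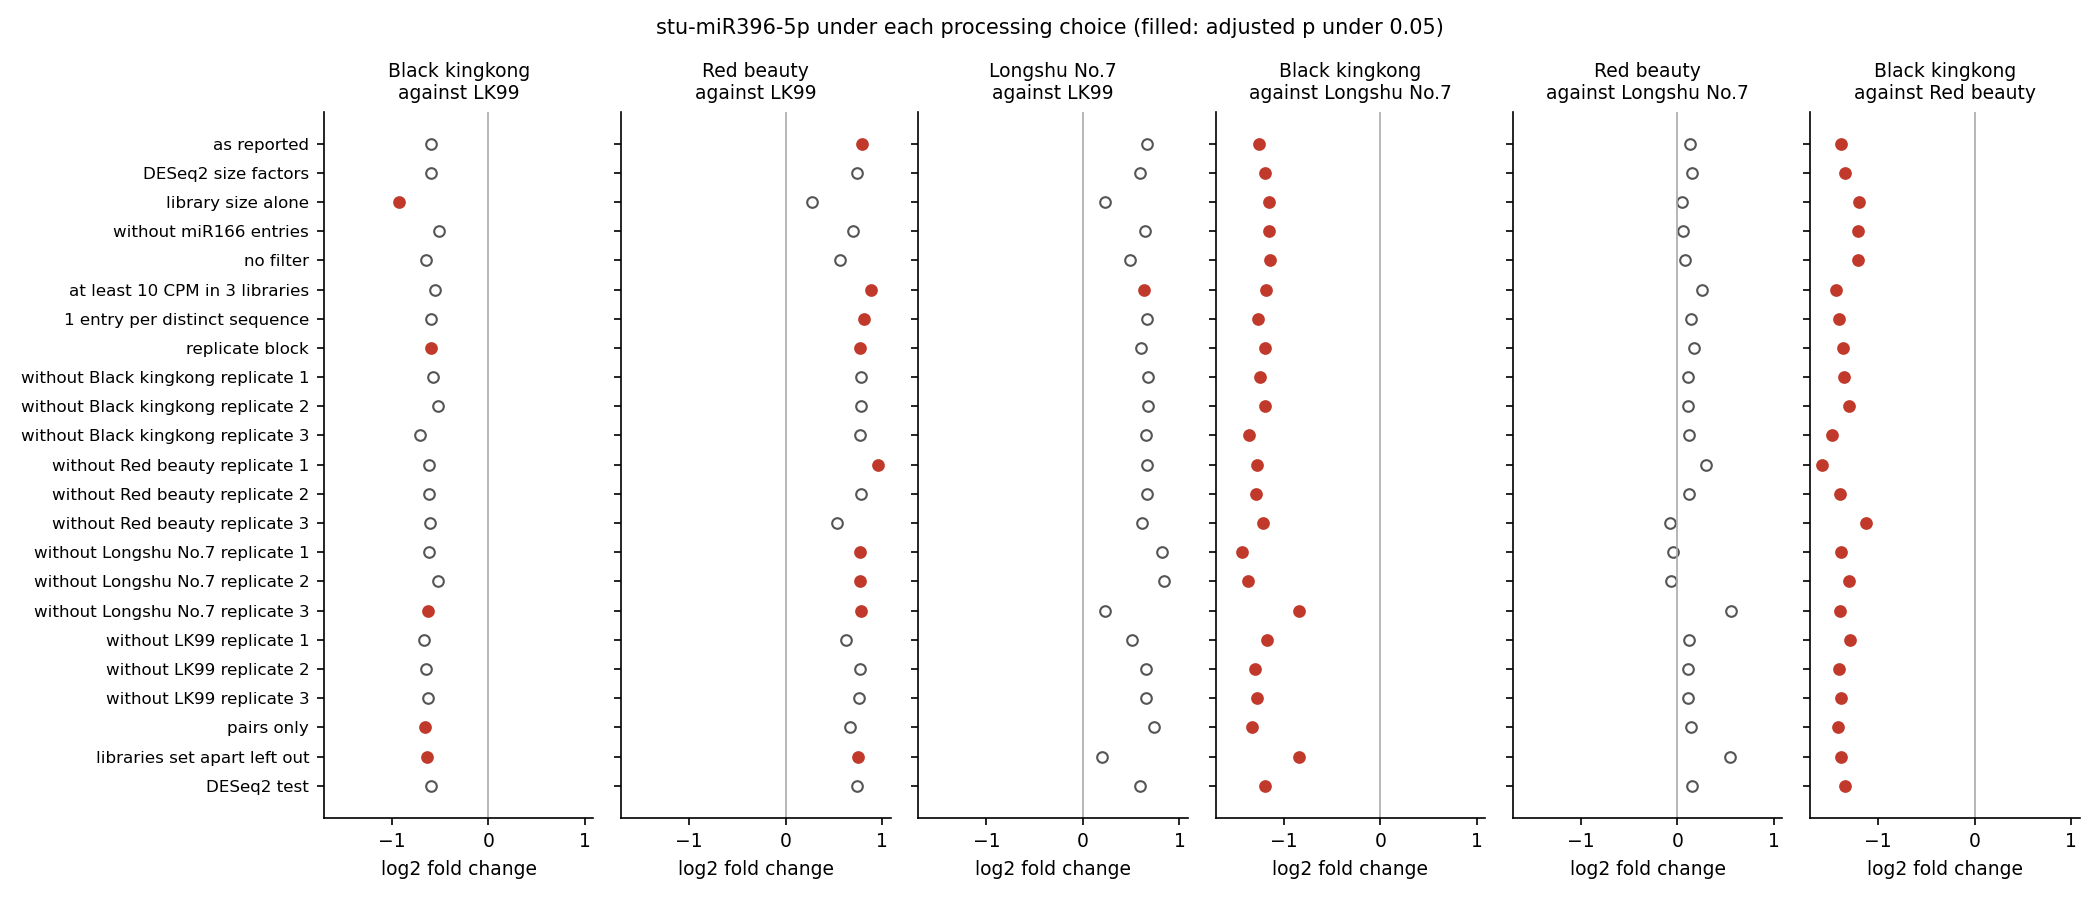
Log2 fold change of stu-miR396-5p in the 6 pairs of cultivars (first-named on top) under each processing choice, 1 choice per row. Filled points passed an adjusted p of 0.05. The 2 pairs of Black kingkong against Longshu No.7 and Red beauty are filled in every row, from -1.44 to -0.84 and from -1.58 to -1.13, while Red beauty against LK99 is filled in 8 of the 22 other settings.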

How the data were processed

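The deposited table gives counts per mature miRNA entry and library, as whole numbers in columns headed count, with a length column. Aligner, counting program and build: not given in the sources used here. A deposited column per library headed TPM is treated as a score and was used in no comparison. The quasi-likelihood F-test of edgeR 4.0.16 (under R 4.3.3 with limma 3.58.1) was fitted once to all 12 libraries, with TMM scaling and a coefficient for each cultivar. Entries were kept by filterByExpr (minimum count 10, minimum total 15), which left 1349 of 7827. P-values were adjusted by Benjamini-Hochberg over the 1349 entries of a comparison, with a threshold of 0.05. Intervals of fold changes are 95% intervals from the fit. Correlations used log2 CPM with a prior count of 2. DESeq2 1.42.0 was an alternative, and strand pairing was predicted with RNAduplex 2.7.2. Poisson intervals (95%, exact) and floors of 3 counts cover counting error only. Alternatives were other scalings and filters, a replicate block, each pair alone, and each library left out. The fit was tested on simulated data. All 5 miR396 entries are named; entries of similar pattern are the 3 with the highest r. The members and lists were chosen with earlier results of these data known.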

Additional observations from a re-analysis of the deposited data

How the results depend on the processing

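The 3p strands rest on 23 to 106 counts per library. The call of stu-miR396-5p among the 4 cultivars, and those of Black kingkong against Red beauty and Longshu No.7, held in every alternative run. Leaving out 1 library at a time, its log2 fold change ran from -1.58 to -1.13 (Black kingkong against Red beauty), -1.44 to -0.85 (Black kingkong against Longshu No.7), -0.71 to -0.52 (Black kingkong against LK99), 0.53 to 0.96 (Red beauty against LK99), 0.22 to 0.84 (Longshu No.7 against LK99), -0.08 to 0.55 (Red beauty against Longshu No.7, negative without Red beauty replicate 3 or Longshu No.7 replicate 1 or 2) and -0.34 to -0.03 (averages of the colour-named cultivars and the others). Red beauty against LK99 lost its call without any 1 of the Black kingkong or LK99 libraries or Red beauty replicate 2 or 3 (adjusted p = 0.055 to 0.21). It was also lost with DESeq2 size factors (0.74, adjusted p = 0.055), library size alone (0.28), no miR166 entries (0.70, adjusted p = 0.075), no filter (0.56, adjusted p = 0.17), a fit of this pair alone (0.67, adjusted p = 0.053) and the DESeq2 test (0.74, adjusted p = 0.080). Black kingkong against LK99 gained a call with library size alone (-0.93, adjusted p = 0.0022), the replicate block (-0.59, adjusted p = 0.039), a fit of this pair alone (-0.66, adjusted p = 0.024) and without replicate 3 of Longshu No.7 and LK99 together (-0.64, adjusted p = 0.042), an alternative chosen after seeing the data. Longshu No.7 against LK99 gained one with at least 10 CPM in 3 libraries (0.63, adjusted p = 0.043), and the averages with library size alone (-0.44, adjusted p = 0.021). The cause of these changes was not tested. Across entries, the r of deviations of same-numbered libraries was -0.07 to 0.15 over 18 pairs (median 0.03). For differently numbered libraries it was -0.12 to 0.08 over 36 pairs (median -0.01). The replicate block changed no other call of a member.

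Counts of called entries depended on the filter, which changes how many are tested. In the order any difference, Black kingkong, Red beauty and Longshu No.7 against LK99, Black kingkong and Red beauty against Longshu No.7, Black kingkong against Red beauty, and the averages, they were 1903, 707, 950, 501, 831, 661, 1087 and 682 of 7827 without a filter, and 236, 116, 153, 102, 140, 83, 183 and 126 of 332 with at least 10 CPM in 3 libraries. Leaving out 1 library gave 403 to 680 for Red beauty against LK99 and 182 to 381 for Longshu No.7 against LK99, both highest without Longshu No.7 replicate 3, where the filter kept 1708 entries. Longshu No.7 against LK99 had 111 calls of 935 entries fitted as a pair alone and 414 of 1619 without replicate 3 of both. Red beauty against Longshu No.7 had 203 of 869 as a pair alone and, without the same libraries, 529 of 1619. The averages had 255 of 1003 with 1 entry per distinct sequence. By library size alone the median of all entries was -0.39 for Black kingkong, -0.51 for Red beauty and -0.34 for Longshu No.7 against LK99 and -0.35 for the averages. Calls then split, in the same order, into 108 higher and 326 lower, 111 and 381, 85 and 203, and 93 and 340, against 168 and 253, 193 and 259, 111 and 136, and 143 and 243 with TMM.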

Other observations

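In the deposited column headed TPM, stu-miR396-5p read 503 in Black kingkong replicate 1, against 4978 and 4961 in replicates 2 and 3, while its counts were 39760, 34070 and 36083. Counts of replicate 1 had been divided by 79.0 (in 1e6 counts), or 11.9 times what its counts sum to. The divisors of the other libraries were 5.68 to 7.44, or 0.822 to 1.27 times theirs.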
